A study of Mus musculus with 4 samples.

Results

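Runx2 occupancy was examined at 10 genes of the insulin-like growth factor (IGF) axis: the ligands Igf1 and Igf2, the receptors Igf1r and Igf2r, and the binding proteins Igfbp2, Igfbp3, Igfbp4, Igfbp5, Igfbp6 and Igfbp7. Every Runx2 peak that shared at least 1 bp with the gene body of one of them, widened by 20 kb on each side, was taken, without regard to its score. The yield was 27 of the 25457 day 0 peaks, 66 of the 60596 day 9 peaks and 55 of the 40330 day 28 peaks, in all 148 of the 126383 peaks of the 3 lists (0.117%). Joining the peaks of different days that shared 1 bp or more left 76 regions, of 67703 in the whole genome. All 10 symbols were found in the annotation, and each gene had at least 1 peak in its window on at least 1 day.

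The study followed MC3T3-E1 subclone 4, a preosteoblast line from C57BL/6 mouse calvaria, and immunoprecipitated Runx2-bound chromatin from proliferating preosteoblasts (day 0), matrix-depositing osteoblasts (day 9) and mineralizing osteoblasts (day 28). Differentiation was induced with ascorbic acid and beta-glycerophosphate, cells before induction were kept without ascorbic acid, and all groups are 1 subclone. At each day 2 biological replicate libraries were sequenced and pooled before peaks were called, against input DNA from day 9 cells at all 3 days, so each day has a single list and no difference between days has a replicate error. The lists are limited to peaks with a p-value of 1e-10 or lower and hold no read counts, so depth is unknown from them. The study's supplement reports more raw reads at day 0 than at day 9 or day 28. A gene without a listed peak may still be bound below that threshold.

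IGF1 and IGF2 are secreted growth factors that signal through the tyrosine kinase receptor encoded by Igf1r and, in bone, promote the growth and survival of osteoblasts. Igf2r encodes a receptor that binds IGF2 and mannose phosphate residues and carries its cargo to lysosomes rather than signalling as a kinase. The IGF binding proteins hold the ligands in the matrix and circulation and either limit or prolong their action, and RUNX2, the transcription factor required for osteoblast formation, binds the core sequence TGTGGT.

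The sequences below carry the Runx2 core at the loci on which the results turn. For each gene with one outside untranslated exons, the 101 bases around the centre of its highest-scoring day 9 peak with TGTGGT within 50 bp of the centre are given, on the plus strand of NCBIM37 (mm9), with the core in capitals as TGTGGT or, where it lies on the minus strand, ACCACA.
Igf2, past the 3′ end, chr7:149832746-149832846: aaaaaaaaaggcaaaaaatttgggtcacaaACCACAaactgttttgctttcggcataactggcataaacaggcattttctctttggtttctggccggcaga
Igf1r, intron 2, chr7:75175947-75176047: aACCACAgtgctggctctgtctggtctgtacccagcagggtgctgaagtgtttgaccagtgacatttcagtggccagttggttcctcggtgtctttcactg
Igf2r, intron 1, chr17:12950866-12950966: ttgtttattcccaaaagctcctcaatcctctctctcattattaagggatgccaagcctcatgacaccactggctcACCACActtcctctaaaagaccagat
Igfbp2 (intron 1) and Igfbp5 (3′ side), chr1:72887380-72887480: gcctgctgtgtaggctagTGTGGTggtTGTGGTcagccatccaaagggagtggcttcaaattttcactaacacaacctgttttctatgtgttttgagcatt
Igfbp7, intron 2, chr5:77796847-77796947: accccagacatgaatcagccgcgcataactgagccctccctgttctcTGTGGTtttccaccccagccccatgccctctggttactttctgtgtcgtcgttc
The Igfbp7 core lay nearest to its peak centre, with its first base at -3 bp, followed by Igf2 at -20 bp, and the stretch shared by Igfbp2 and Igfbp5 held a pair of cores on the same strand. Igf1, Igfbp3 and Igfbp6 had no day 9 peak with the core this close to the centre.

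A core was counted only as TGTGGT on either strand, and only where all its bases lay within 50 bp of the centre. The highest-scoring day 9 peaks of both receptors held no such core, and their central 121 bases are given to show this, a choice made after their values were seen.
Igf1r, upstream of the first exon, chr7:75095765-75095885: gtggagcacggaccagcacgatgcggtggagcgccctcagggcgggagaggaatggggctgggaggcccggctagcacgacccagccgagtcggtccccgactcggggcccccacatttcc
Igf2r, intron 21, chr17:12903219-12903339: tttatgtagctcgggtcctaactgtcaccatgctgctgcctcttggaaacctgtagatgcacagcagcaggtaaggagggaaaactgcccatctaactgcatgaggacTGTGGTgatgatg
The printed Igf1r stretch holds TGCGGT, which was not counted as a core. The nearest core to the Igf1r centre began 396 bp away, within the peak. In Igf2r intron 21 it began 48 bp from the day 9 centre, so that its last bases passed the limit, and 7 bp from the day 28 centre, and the peak held 4 cores at each of these days.

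Peaks at the IGF genes were most numerous at day 9 and fewest at day 0. At least 1 peak lay within 20 kb of 7 of the 10 genes at day 0, against 65% of the 22359 protein-coding genes, of all 10 at day 9, against 77%, and of 9 at day 28, against 71.2%. More peaks at day 9 than at day 0 were found at 9 genes, the exception being Igfbp7, and 60.3% of all protein-coding genes showed the same order. More peaks at day 28 than at day 9 were found at Igf2, Igfbp4 and Igfbp5, 3 of 10 genes, against 6.58% of all. No day 0 peak but peaks at days 9 and 28 were found at Igfbp2 and Igfbp5, 2 of 10 genes, against 7.4% of all, and this pair shares part of its window. The order of days depended on the length of the lists: with the 25457 top-scoring peaks of each list, the counts were 27 at day 0, 25 at day 9 and 33 at day 28.

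**Figure D1:**
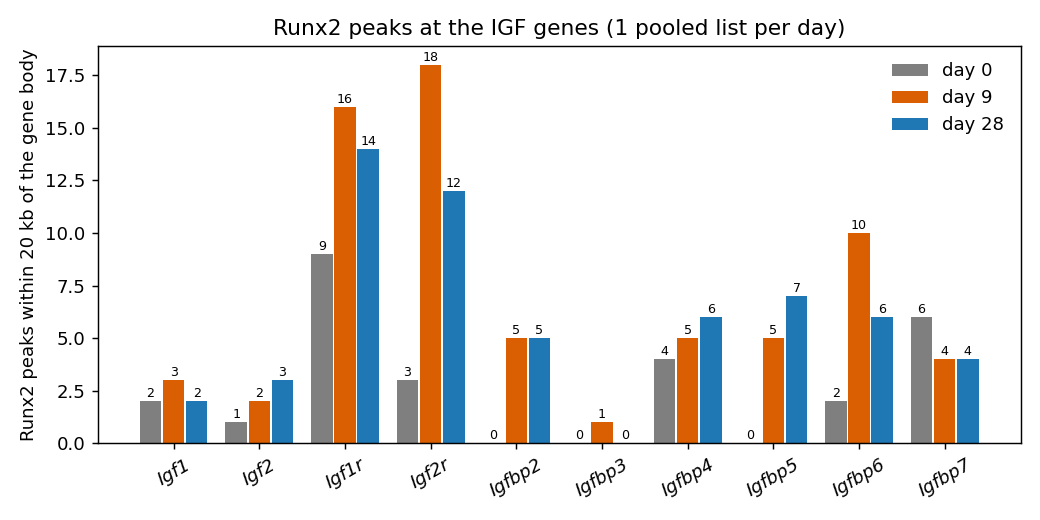
Number of Runx2 peaks (vertical axis) within 20 kb of the gene body of each of the 10 IGF genes, as 1 bar per day from a single pooled list, with no error bars because there are no replicate lists. Igf1r and Igf2r held the most peaks at days 9 and 28, up to 18 at Igf2r on day 9, whereas at day 0 Igf1r (9) was followed by Igfbp7 (6) and Igfbp4 (4), and Igfbp3 held 1 peak in all.

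Counts rise with the length of a gene, so peaks were also expressed per 100 kb of window and each gene was placed as a percentile among all protein-coding genes of the same day. The median of the 10 genes was 2.07, 6.23 and 6.35 peaks per 100 kb at days 0, 9 and 28, beside 1.69, 3.49 and 2.33 for all protein-coding genes. Igfbp6, a binding protein with a preference for IGF2, had the highest density at day 9 (percentile 97.7) and at day 28 (96.6). Its gene body of 5.15 kb held 3 of these 10 peaks at day 9 and 1 of 6 at day 28. The rest lay in the flanks of the window, which reach into the neighbours Spryd3 and Soat2. Igf2r, with 18 and 12 peaks, stood at percentiles 91.1 and 91.0, whereas Igf1r, with 16 and 14 peaks over a gene body of 273.772 kb, stood at 62.6 and 69.0. By the share of the window under peaks, Igfbp6 (15.5% at day 9 and 11.9% at day 28) and Igf2r (12.3% and 10.5%) were likewise high, beside 2.29% and 2.09% for the median protein-coding gene. In density, Igf1 (43.9 and 40.0) and Igfbp3 (36.7 and 14.4) lay below the median gene on both days.

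**Figure D2:**
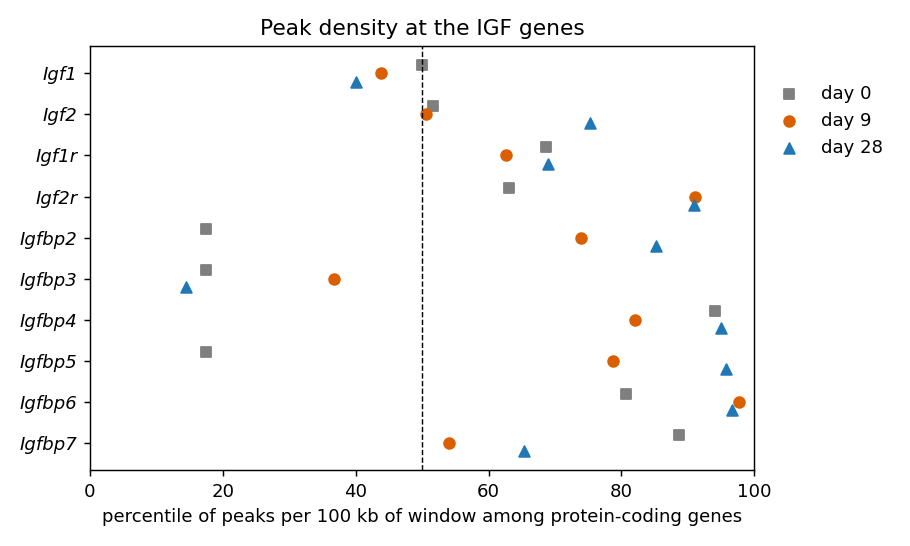
Percentile of each IGF gene among protein-coding genes by Runx2 peaks per 100 kb of window (horizontal axis), with 1 point per day and the median gene as a dashed line. Igfbp2 and Igfbp5 moved from percentile 17.5, shared by all genes without a peak, at day 0 to 85.2 and 95.8 at day 28, whereas Igfbp7 was highest at day 0 (88.6).

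A promoter peak was counted where a peak overlapped the stretch from 1000 bp before to 150 bp after a transcription start site (TSS) of a protein-coding transcript. At day 0 there were 5 such genes of 10 (Igf1, Igf2, Igf1r, Igfbp4 and Igfbp7), against 42.7% of all protein-coding genes. At day 9 there were 7 (Igf1, Igf1r, Igf2r, Igfbp2, Igfbp4, Igfbp6 and Igfbp7), against 51.6%, and at day 28 Igf2 joined these to give 8, against 50.1%. Igfbp3 and Igfbp5 had no promoter peak at any day. Most peaks were not at promoters: by their centres, 40 of 66 day 9 peaks lay in introns (60.6%, against 42.9% of the whole list) and 3 were intergenic (4.55%, against 25.4%), shares that the choice of windows around gene bodies favours.

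Scores were compared only as percentiles within the list of their own day, because the score, 10 times the negative log10 of the peak's p-value, depends on depth. A score of 3100 is shared by 2699 day 9 and 1468 day 28 peaks, which therefore have no order among themselves. The highest score in each list is 3233.06. Whether peaks at 3100 are weaker than those scored above it cannot be told from the lists. Percentiles of 97.4 or more at day 9 and 97.8 or more at day 28 are therefore not an order of strength. The median percentile of the peaks at the IGF genes was 38.9, 46.7 and 41.0 at days 0, 9 and 28, below the middle of each list.

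**Figure D3:**
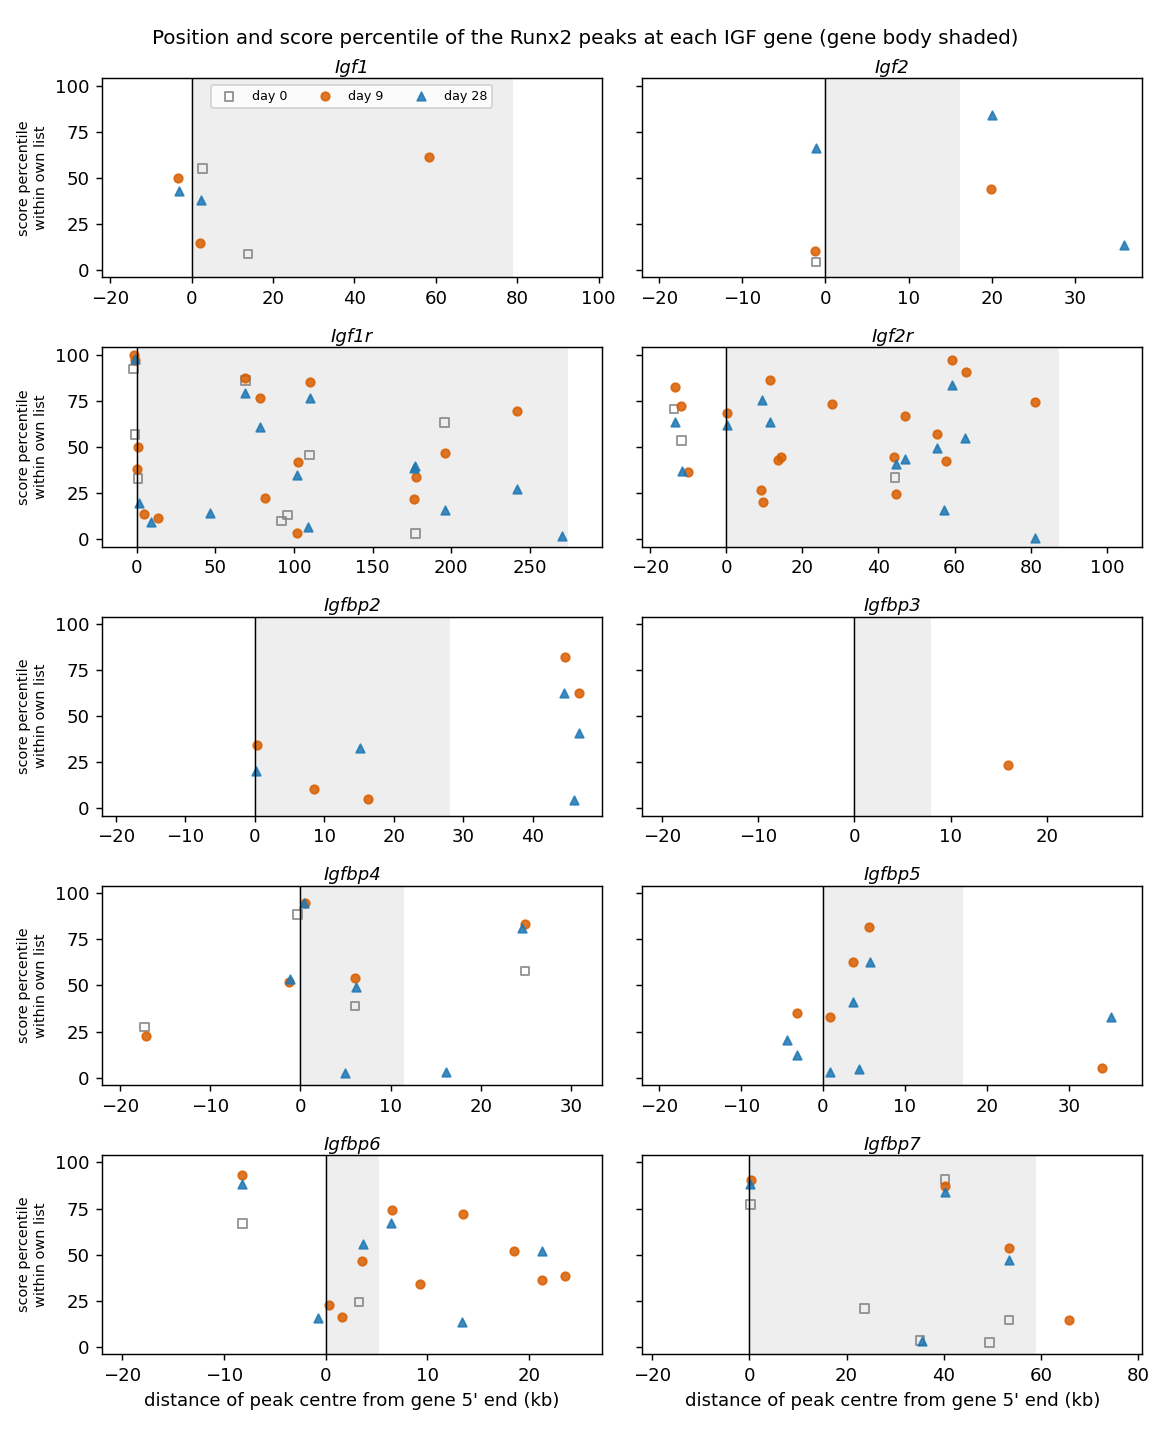
Distance of each Runx2 peak centre from the 5′ end of its gene in kb (horizontal axis) against its score percentile within its own list (vertical axis), with 1 panel per gene, the gene body shaded and 1 symbol per day. Points above percentile 90 lie ahead of the first exon of Igf1r, inside Igf2r, at the start of Igfbp4, at the start and in intron 2 of Igfbp7 and upstream of Igfbp6.

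Of the ligands, Igf1 had few and middle to low ranking peaks at each day. It spans chr10:87321010-87399792 on the plus strand and had 2, 3 and 2 peaks at days 0, 9 and 28. Its promoter region, chr10:87322695-87324145, was centred 2410 bp into the gene and lay over an exon and several of the 9 annotated start sites. It scored 306.79 at day 0 (percentile 55.1), 121.89 at day 9 (14.4) and 231.1 at day 28 (37.9). The rank was thus lowest at day 9, when the count of peaks was highest, and the day 0 and day 9 peaks met only at their edges, that of day 9 ending at position 87323150 and that of day 0 starting at 87323125. The day 28 peak, chr10:87322695-87323726, covered the whole day 9 peak and the start of the day 0 peak. Its best day 9 peak, chr10:87379204-87379611, scored 389.29 (percentile 61.2) in an intron of a longer transcript and had no counterpart on the other days. A further region at -3166 bp ranked at percentile 49.8 at day 9 and 43.1 at day 28. Gm16176, a transcript on the opposite strand, overlaps the start of Igf1 and holds the promoter region and this upstream region in its body.

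Igf2, the ligand that predominates in fetal growth, had peaks that ranked higher at day 28 than at day 9. It lies on the minus strand at chr7:149836673-149852721 and had 1, 2 and 3 peaks at days 0, 9 and 28. A region centred at -1084 bp, chr7:149853378-149854233, scored 108.59 at day 0 (percentile 4.44), 114.76 at day 9 (10.5) and 592.38 at day 28 (66.0). The day 9 peak began at position 149853730, short of the 1000 bp promoter limit, so Igf2 was not counted with a promoter peak at that day. The region past the 3′ end, chr7:149832344-149833116, whose core sequence is printed above, scored 223.94 at day 9 (percentile 44.1) and 1350.5 at day 28 (84.2) and was not listed at day 0. At day 28 its centre lay 3.95 kb from the end of the gene. Both regions therefore ranked higher at day 28 than at day 9, by 55.5 and 40.1 percentile points. The remaining region, at day 28 alone, ranked at percentile 13.5. Of the genes starting in the Igf2 window, the microRNA gene Mir483, the antisense transcript Igf2as and the insulin gene Ins2 had no promoter peak at any day, although the upstream region lies inside the body of Igf2as.

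Igf1r, which encodes the signalling receptor, carried the Runx2 peak with the highest listed score of the axis, though its order against peaks at 3100 cannot be told. It spans chr7:75097713-75371484 on the plus strand and had 9, 16 and 14 peaks in 18 regions. The region over its promoter, chr7:75095395-75099208, was split into 3 peaks on day 0, 4 on day 9 and 2 on day 28. Its best peak scored 1116.46 at day 0 (percentile 92.4), 3171.55 at day 9 (99.8) and 3100 at day 28 (97.8). At days 0 and 9 this peak was centred at -1888 bp, ahead of the promoter limit. The peak over the promoter itself was centred at -993 bp at day 0 (score 320.46, percentile 56.8) and at -805 bp at day 9 (3100, percentile 97.4). On day 28 a single peak of 2986 bp covered both places. The core TGTGGT was absent from the central 101 bases of the day 9 peak at -1888 bp. These bases held TGCGGT, and 74.3% of them were G or C.

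Inside Igf1r, the long intron 2 held most of the remaining strong peaks. The region chr7:75166377-75167183 was listed at all 3 days, at percentiles 86.1, 87.3 and 79.3, and held no TGTGGT. The region chr7:75207238-75208307, also listed at all 3 days, ranked at percentile 45.8 at day 0, 85.4 at day 9 and 76.5 at day 28. The region around the printed intron 2 core, chr7:75175611-75176306, was listed at days 9 and 28 (percentiles 76.7 and 61.0) and not at day 0. A region over a second annotated start site, chr7:75293091-75294030, ranked lower at each later day, with percentiles of 63.3, 47.0 and 16.1. Regions listed at 1 day alone were weak throughout Igf1r: all 9 lay at or under percentile 22.6.

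Igf2r, the clearance receptor for IGF2 and an imprinted gene, had 3, 18 and 12 peaks and so a wider gap between day 0 and day 9 than any other member. It lies on the minus strand at chr17:12875272-12962530. Its 3 day 0 peaks fell in 3 regions that were listed at every day: chr17:12917101-12919205 in intron 10, and chr17:12973837-12974712 and chr17:12975574-12976968 upstream, centred at -11744 bp and -13741 bp. The remaining 13 regions had no day 0 peak. The promoter region, chr17:12961720-12963061, scored 530.66 at day 9 (percentile 68.5) and 512.18 at day 28 (62.1). It also covered the promoter of a short entry that the annotation names 7SK and types as miscellaneous RNA.

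The strongest Igf2r peaks at day 9 lay deep in the gene. The region in intron 21, chr17:12902789-12903851, scored 3100 at day 9 (percentile 97.4) and 1294.01 at day 28 (83.4). Nearby, the region in intron 22, chr17:12899174-12900231, scored 1943.52 at day 9 (percentile 90.5) and 386.7 at day 28 (54.6). In intron 1, chr17:12950555-12951422, which holds the printed intron 1 core, scored 1464.19 (percentile 86.6) and 537.76 (63.4). Most shared regions of Igf2r ranked lower at day 28 than at day 9, with a median difference of -20.9 points over 12 regions, of which 6 were lower by 20 points or more and 1 was higher by as much. Over all 32903 regions listed at both days the median was -7.00 points, with 25.2% lower and 4.54% higher by 20 points or more, and the lists differ in length. The exception, chr17:12952219-12953881 in intron 1, was a pair of peaks at day 9 (best percentile 26.9) and a single wider peak at day 28 (75.2).

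Airn, a long noncoding RNA that starts within Igf2r on the opposite strand and is known for silencing Igf2r on the paternal chromosome, had a peak over its promoter at day 9 alone. This region, chr17:12934008-12935689 in intron 2 of Igf2r, scored 678.17 (percentile 73.6), was the highest-ranked of the 4 Igf2r regions listed at day 9 alone, and held no TGTGGT. Because the genes overlap, a peak in this stretch cannot be given to one of them.

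Igfbp2 and Igfbp5 encode binding proteins that are made by osteoblasts, IGFBP5 being abundant in bone matrix. They lie tail to tail at chr1:72871077-72899048 and chr1:72904506-72921458, and 5 regions fell in the windows of both. Neither had a peak at day 0. Igfbp2 had 5 peaks at day 9 and 5 at day 28, and Igfbp5 had 5 and 7. The strongest region of both windows lay in intron 1 of Igfbp5, chr1:72915127-72916250, with a score of 1082.57 at day 9 (percentile 81.9) and 524.01 at day 28 (62.7). It held 3 cores, the nearest beginning at -163 bp from the day 9 centre and at -37 bp from the day 28 centre.

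The promoter of Igfbp2, chr1:72870969-72871658, carried low-ranking peaks, with scores of 177.56 at day 9 (percentile 34.6) and 150.18 at day 28 (20.5). Igfbp5 had none over its promoter, the nearest being a peak region in exon 1, chr1:72920274-72920785, centred 929 bp into the gene, at percentiles 33.0 and 2.99. All 4 Igfbp5 regions shared by days 9 and 28 ranked lower at day 28, with a median difference of -22.1 points, and 3 were lower by 20 points or more, against 25.2% of all such regions, whose median was -7.00 points. The larger number of Igfbp5 peaks at day 28 came from 3 regions listed at that day alone, at percentiles 4.48, 20.3 and 32.6. The stretch with a pair of cores printed above belonged to a peak near the threshold, with a score of 107.04 at day 9 (percentile 5.29) and none at day 0 or day 28.

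Igfbp3, the main carrier of IGFs in the circulation, was the member with the least Runx2 occupancy. Its window around chr11:7106089-7113926 held a single peak, chr11:7097707-7098301, listed at day 9 alone with a score of 142.54 (percentile 23.7). That peak lay over the start of the neighbouring gene Igfbp1, and none overlapped Igfbp3 itself. No other gene starting in the window had a promoter peak (Gm11985 had none).

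Igfbp4, whose product mainly inhibits IGF action and is cleaved by the protease PAPP-A, had a strong promoter peak at every day. Its promoter region, chr11:98901070-98903898, scored 881.53 at day 0 (percentile 88.5), 2835.73 at day 9 (94.5) and 2787.59 at day 28 (94.9), and spanned 2829 bp without a TGTGGT. At days 9 and 28 the main peak was centred 444 bp and 403 bp into exon 1 and a weaker one lay ahead of it, whereas at day 0 a single peak centred at -338 bp covered both. A region centred 24612 bp from the start of Igfbp4, chr11:98926574-98927767, overlapped an exon of the tensin gene Tns4 and ranked at percentiles 57.9, 83.6 and 81.2. The peaks by which day 28 exceeded day 9 were weak (percentiles 2.68 and 2.90). On the other side, the promoter of Top2a, which encodes a DNA topoisomerase of dividing cells, had a peak at day 0 (percentile 27.4) and day 9 (22.8) and none at day 28.

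Igfbp6, at chr15:101974793-101979942, had 2, 10 and 6 peaks, but its strongest peak belonged to a neighbour. The region chr15:101965910-101967209, over the promoter of Spryd3, scored 417.99 at day 0 (percentile 66.9), 2526.37 at day 9 (93.4) and 1670.75 at day 28 (88.1). The promoter of Igfbp6 itself carried only weak peaks at different places: chr15:101974844-101975308 at day 9 (score 139.31, percentile 22.6) and chr15:101973694-101974340 at day 28 (135.31, percentile 15.7). A region within Igfbp6, chr15:101977295-101978898, was listed at all 3 days and ranked at percentiles 24.5, 46.5 and 55.9. The peaks of this region were centred in intron 1 at day 0, exon 2 at day 9 and intron 2 at day 28. On the far side, the promoter of Soat2, which encodes a sterol acyltransferase, had a peak at day 9 (702.02, percentile 74.3) and day 28 (622.9, percentile 67.3) and none at day 0.

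Igfbp7, whose product binds IGFs with low affinity, was the sole member with more peaks at day 0 (6) than at day 9 (4) or day 28 (4). It spans chr5:77778265-77837070 on the minus strand. The region over its promoter and exon 1, chr5:77836219-77837467, scored 567.08 at day 0 (percentile 77.3), 1977.49 at day 9 (90.7) and 1701.89 at day 28 (88.4). The region in intron 2, chr5:77796480-77797263, whose core is printed above, scored 1008.96 at day 0 (percentile 90.9), 1527.45 at day 9 (87.2) and 1325.84 at day 28 (83.9). A region in intron 3 was also listed at all 3 days (percentiles 14.5, 53.4 and 47.3). Both regions listed at day 0 alone, and the one listed at days 0 and 28, were weak, at percentiles of 20.8 or lower. At the opposite end, 1 day 9 peak (percentile 14.4) lay inside Polr2b, a subunit gene of RNA polymerase II, and AC141469.5, whose annotated bodies overlap there.

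Across the axis, regions were sorted by the days at which they were listed. Of the 76 regions, 18 were listed at all 3 days (23.7%, 95% interval 14.7 to 34.8), against 27.4% of all regions, and 23 at days 9 and 28 (30.3%, 20.2 to 41.9), against 21.1%. Regions listed at day 9 alone numbered 17 (22.4%, 13.6 to 33.4), against 34.5% of all. Regions listed at day 28 alone numbered 11 (14.5%, 7.45 to 24.4), against 7.59%. The rest were few: 5 at day 0 alone (5.6% of all regions), 1 at days 0 and 9 (1.69%) and 1 at days 0 and 28 (2.06%). These intervals are exact binomial (Clopper-Pearson) intervals that cover counting error only, and regions of one gene are not independent. The windows hold few intergenic stretches, unlike the genome, and the part of this in the shares was not tested. The interval for day 9 alone lay below the genome's share, the other intervals included it, and Igf2r alone contributed 9 of the 23 regions of days 9 and 28.

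Of the 41 regions with peaks at both days 9 and 28, the median change in percentile from day 9 to day 28 was -7.29 points, beside -7.00 over all 32903 such regions. A rank lower by 20 points or more at day 28 was found in 12 of 41 regions, against 25.2% of all, and higher by 20 points or more in 4 of 41, against 4.54%. These 4 were both shared regions of Igf2, the promoter region of Igf1 and 1 region of Igf2r, and Igf2 had no other region listed at both days. The regions over the promoters of Igf1r, Igfbp4 and Igfbp7 changed little in rank, by -2.06, 0.46 and -2.30 points. The Igf1r value compares scores of 3171.55 at day 9, from a peak ahead of the promoter limit, and 3100 at day 28, whose order cannot be told.

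**Figure D4:**
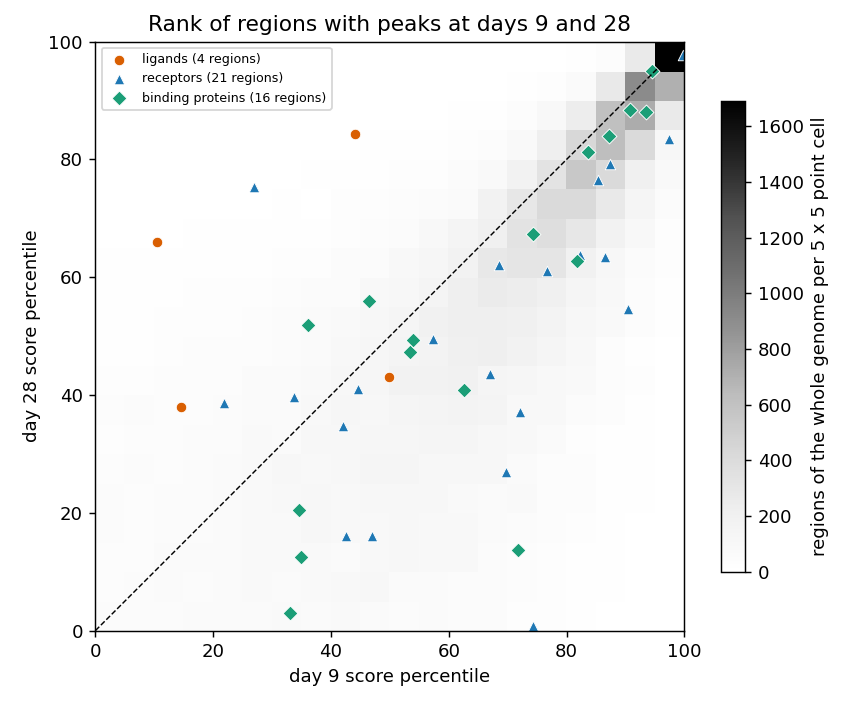
Score percentile at day 9 (horizontal axis) against that at day 28 (vertical axis) for the 41 regions at IGF genes with peaks on both days, over the number of regions of the whole genome per cell of 5 by 5 points (grey). The dashed line marks equal rank, most points lie below it, and both Igf2 regions lie far above it at day 28 percentiles of 66.0 and 84.2.

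The core TGTGGT, read on both strands, was found within 50 bp of the centre of 10 of 66 day 9 peaks at the IGF genes (15.2%, 95% interval 7.51 to 26.1), against 25.3% of all day 9 peaks. In flanking stretches of the same length, 450 to 550 bp from the centre, the shares were 9.09% at the IGF genes and 7.32% over the list. At day 0 the core was central in 4 of 27 peaks (14.8%, 4.19 to 33.7), against 16% of all, and at day 28 in 13 of 55 (23.6%, 13.2 to 37.0), against 20.9%. All 3 intervals included the share of the whole list. They cover counting error only, and peaks of one gene are not independent, so no difference from other peaks is read from them. Split at percentile 50 of the score, the core was central in 4 of the 35 IGF peaks in the lower part of the day 9 list (11.4%, against 28.3% of all peaks there) and in 6 of the 31 in the upper part (19.4%, against 22.4%), a difference that was not tested. Igf1r held 3 of the 10 day 9 peaks and Igf2r another 3. The median G or C content of the central 101 bases was 56.4% at day 9, beside 55.4% for the list.

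Triplets of counts served to ask how common the pattern of each gene was. The counts 9, 16 and 14 of Igf1r and 0, 5 and 7 of Igfbp5 were shared with no other protein-coding gene. Exact matches are less likely where counts are high, and Igf1r stood at count percentiles 99.0, 97.9 and 99.0. The share of all genes without a match is not reported here, so the lack of one cannot be read as a trait of these genes. Those of Igf2r were found at 2 others, one of them Rptor, which encodes a subunit of the mTOR complex. The pattern of Igfbp3 was common, with 857 others including its neighbour Igfbp1 and the insulin receptor-related gene Insrr, and that of Igf1 was found at 429 others.

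The wider pathway was described from a list of 46 other genes, of which 45 were protein-coding. Promoter peaks were found at 29 of the 45 at day 0 (64.4%), 36 at day 9 (80%) and 35 at day 28 (77.8%), above the shares of all protein-coding genes given for the promoters of the members, and 28 genes had one at all 3 days. Among genes with a peak in the top 5% of a list, Insr (insulin receptor) and Ghr (growth hormone receptor) act at the membrane, Irs1, Irs2, Shc1, Grb10 and Sos1 encode adaptors or exchange factors behind the receptors, and Pik3r2, Pdpk1, Gsk3b, Foxo3 and Rps6kb1 belong to phosphoinositide 3-kinase signalling. Htra1 and Adam12, also with such a peak, encode secreted or membrane proteases able to cleave IGF binding proteins.

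Among these, Foxo3, a transcription factor inhibited by AKT, had peaks at percentiles 96.4, 99.7 and 99.8 at days 0, 9 and 28. The day 9 and day 28 scores of Foxo3, 3101.39 and 3160.16, cannot be ordered against the many peaks at 3100, such as those of Irs1. Adam12 had 1 peak at day 0, 17 at day 9 and 8 at day 28, with a promoter peak at the later days and none at day 0. At the other end, Ins1, an insulin gene, and Stc1, which encodes stanniocalcin 1, had no peak within 20 kb at any day. Ins2, whose window overlaps that of Igf2, had no promoter peak, and its sole peak at each day was the region upstream of Igf2.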

How the data were processed

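Runx2 ChIP-Seq peaks of MC3T3-E1 cells were analysed from 1 deposited list per day. Per the labels and the study's methods, the authors aligned reads to mm9 using Bowtie 0.12.8, combined 2 libraries per day and ran MACS 1.4.1 against day 9 input DNA. The deposited score is that of MACS, minus 10 times log10 of p for the peak, with no value under 100 in any list. Read signal and the input DNA library were not used here.

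Gene bodies, exons and start sites came from GENCODE M1 (Ensembl 65) on NCBIM37, with positions counted from 1. Summits were not used, so the centre of a peak stood for its location. Exons took precedence over introns, promoters, the end of the gene, upstream stretches of 20 kb and intergenic sequence. Percentiles are mid-ranks within a list. No test was made between days, because each has a single pooled list.

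The members and gene lists were chosen with earlier results of these data known. All members were named, with the region of the highest day 9 score and each promoter region. Further regions were described as ranges, or named after their values were seen. Pathway genes were named with a peak in the top 5% of a list, no peak at any day or a place in a member's window, or for sharing a member's counts, and neighbours where their promoter or body met a member's window or peaks. The values of 1 pathway gene so chosen are not reported here. Alternatives covered the minimum score, list length, window, overlap, promoter and motif. Python 3.11.15 was used with SciPy 1.17.1, NumPy 2.4.6 and, for figures, Matplotlib 3.10.9, and procedures were tested on simulated data.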

Additional observations from a re-analysis of the deposited data

How the results depend on the processing

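Of 102 alternatives of the main values over 14 settings, 61 stayed within their limit (1.5 times for a count). With a score of at least 200, peaks at the IGF genes numbered 14, 40 and 35 at days 0, 9 and 28. The median density was 1.21, 2.99 and 3.99 peaks per 100 kb, beside 0.92, 2.20 and 1.81 for all protein-coding genes. At this score 4 genes had a day 9 promoter peak, and 45 regions were left, 11 of them at all days and 10 at day 9 alone. With a score of at least 500, peaks numbered 5, 22 and 17, and the density was 0, 1.83 and 1.89, beside 0, 1.34 and 1.02 for all protein-coding genes. Promoter peaks were found at 2, 4 and 5 genes and at 13 other pathway genes at day 0. At that score 24 regions were left, 5 at all days, 9 at days 9 and 28 and 7 at day 9 alone. With each list limited to its 25457 best peaks, peaks numbered 25 at day 9 and 33 at day 28. The density was then 2.48 and 3.27, beside 1.70 and 1.72 for all protein-coding genes. A day 9 promoter peak was left at 4 genes, and 45 regions were left, 10 at all days, 9 at days 9 and 28 and 5 at day 9 alone. With 50 kb on each side there were 43 day 0 and 89 day 28 peaks and 29 regions at all days, and in the gene body alone 11 regions were at day 9 alone. With the peak centre in the promoter, 3, 3 and 5 genes were counted. The shares of all genes with a promoter peak under these alternatives are not reported here. TGTGGT lay within 100 bp of the centre of 36.4% of the day 9 peaks at the IGF genes. With TGYGGT, where Y is C or T, counted within 50 bp, the share of these peaks was 21.2%. The shares of the whole list at these settings are not reported here. Day 9 had the most peaks and day 0 the fewest in 7 of 8 alternative settings, and equal list lengths ended that order; the cause was not tested. No paired analysis was possible because each day has 1 pooled list and no replicate lists. Depth is not given in the lists, so a missing peak can reflect the threshold.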

Other observations

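The stretch between Igf2 and H19 held further Runx2 peaks outside the Igf2 window. H19 encodes an imprinted noncoding RNA at chr7:149761434-149764048, and 72.6 kb separate it from Igf2. No day 0 peak lay between them. At day 28, peaks were centred 3.95, 19.8, 23.9, 28.4, 40.0 and 45.5 kb from the 3′ end of Igf2, with scores of 1350.5, 128.93, 306.16, 216.51, 182.81 and 176.82. At day 9, peaks lay at 3.88, 45.4 and 45.9 kb, with scores of 223.94, 156.87 and 129.82. Only the pair nearest to Igf2 and the pair around 45.4 kb were listed at both days. H19 had no promoter peak at any day, and its sole peak, 17366 bp from its start at day 9, scored 282.1 (percentile 52.0) with TGTGGT near the centre (at most 50 bp off).

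Proteases and partners of the binding proteins showed varied patterns, named here after their values were seen. Pappa, which encodes the protease that cleaves IGFBP4, had 6, 6 and 9 peaks at days 0, 9 and 28, and its relative Pappa2 had 14, 11 and 9, and neither had a promoter peak. Stc2, an inhibitor of PAPP-A, had 1 peak at day 0 and none later. Igfals, which encodes the acid-labile subunit of circulating IGF complexes, had 2, 8 and 4 peaks, with a promoter peak at days 9 and 28 and a best percentile of 92.3 at day 9.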
